A study of Mus musculus with 2 samples.

Results

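The miR-146 family of the mouse has 2 hairpins, miR-146a and miR-146b, and its 4 mature arms were followed here in macrophage exosomes. The members were chosen by name, for their known role in macrophage NF-κB feedback, and are 4 of the 1976 mature miRNAs listed. Exosomes, small vesicles that cells shed into their medium, came from bone marrow-derived macrophages, which are primary macrophages grown from marrow, here of C57BL/6 mice aged 5 to 6 weeks. All cells received M-CSF, the macrophage growth factor, at 10 ng/mL for 7 days. The M1 group was then given IFN-γ, and the M2 group IL-4, each at 20 ng/mL for 1 day. Both groups then spent 2 days in medium without serum, from which the exosomes were isolated by ultracentrifugation. The M1 state was set by IFN-γ alone, and the labels name no Toll-like receptor ligand. The number of animals or cultures behind a library is not given in the sources used here. Each group has 1 library, so no value has a replicate error, no test was made, and every difference is one between 2 libraries and not between the 2 conditions.

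miR-146a and miR-146b are a textbook case of negative feedback in innate immunity. NF-κB, the transcription factor switched on by Toll-like receptors and by cytokines, raises transcription of miR-146a. The 5p arms of both hairpins then repress Traf6 and Irak1, whose proteins carry the signal from the receptors to NF-κB, so that the response is damped. A hairpin is cut into a 5p and a 3p arm. One arm, the guide, is usually loaded into the silencing complex, and the other, the passenger, is mostly degraded. The seed, bases 2 to 8 of the mature miRNA, sets most of its target choice.

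The mature sequences show which members can share targets, and are given from RefSeq (build GRCm38.p6), 5′ to 3′, with the seed in capitals.
mmu-miR-146a-5p: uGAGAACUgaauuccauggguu
mmu-miR-146b-5p: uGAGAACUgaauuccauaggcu
mmu-miR-146a-3p: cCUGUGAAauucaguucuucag
mmu-miR-146b-3p: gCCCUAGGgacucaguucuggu
The prefix mmu marks the mouse and is left out from here on. The 5p arms had the same seed, and no other mature miRNA with a RefSeq sequence had it (1677 of the 1976 names matched one). The 3p arms had different seeds, and neither shared its seed with another of these miRNAs.

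The 5p arms are 22 bases long, were identical at 20 bases, and differed only near the 3′ end, where the differing bases are shown in capitals.
miR-146a-5p: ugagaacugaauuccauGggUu
miR-146b-5p: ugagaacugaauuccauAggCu
Counted from 1 at the 5′ end of miR-146a-5p, the substitutions are G18A and U21C. The first 17 bases are the same, so a read that ended there could belong to either arm. How such reads were assigned is not given in the sources used here, so the split between miR-146a-5p and miR-146b-5p is uncertain to that extent. The 3p arms were identical at 4 of 22 bases when set side by side from the first base, without gaps. Both hold the stretch ucaguucu, but not at the same positions, so this count misses part of their likeness. Outside the family the nearest RefSeq mature sequence had at least 9 differences from each arm, compared without gaps from the first base. Each base of unequal length counted as a difference, and likeness at shifted positions was not searched.

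The hairpin of miR-146a (gene Mir146) lies on the minus strand of chromosome 11, from 43374397 to 43374461 (GRCm38, the assembly called mm10). Its 5p arm covers 43374435 to 43374456 and its 3p arm 43374399 to 43374420. GENCODE M21 annotates no other gene across this hairpin, and the nearest, the long noncoding RNA gene Gm12148, lies 11021 bases away. The hairpin of miR-146b (gene Mir146b) lies on the plus strand of chromosome 19, from 46342762 to 46342870, within an intron of the protein-coding gene Mfsd13a on the same strand. Its 5p arm covers 46342790 to 46342811 and its 3p arm 46342828 to 46342849. The paralogues are thus separate loci on different chromosomes.

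The deposited values are log2 values of a normalized level plus 1, and a level is given in units of that scale. Whole read numbers behind the values could be recovered for the 747 miRNAs listed above 0 in either library. They total 867006 for the M1 library and 581556 for the M2 library. Intervals given with reads are exact 95% counting intervals. They cover counting error only: how far cultures, preparations of exosomes or libraries vary was not measured, and PCR copies are not independent molecules.

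miR-146a-5p, the guide strand that represses Traf6 and Irak1, was the most abundant miRNA of the M1 library. Its log2 value was 16.88 in the M1 library and 15.63 in the M2 library, which are levels of 120526 and 50604 units. It rested on about 152250 reads in the M1 library and 40060 in the M2 library, or 17.6% and 6.89% of the reads recovered for each. The level in the M1 library was 2.02 times that of the next miRNA, miR-122-5p. In the M2 library it ranked 5, at 0.635 times the level of the leading let-7j.

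The log2 ratio of M1 over M2 was 1.25 for miR-146a-5p, which is 2.38-fold higher in the M1 library (counting interval 2.36 to 2.41 at the relative library size fitted to the values). With reads scaled to the total of each library instead, the log2 ratio was 1.35. miRNAs with a level of 10 units or more in either library were compared, and a ratio of 2-fold or more was called. Of the 337 miRNAs compared, 88 (26.1%) were called with the higher level in the M1 library and 77 (22.8%) with the lower, around a median log2 ratio of 0.04. The ratio of miR-146a-5p was exceeded by that of 71 of the 337. Of the 58 miRNAs whose mean level was 1000 units or more, 14 (24.1%) were called higher in the M1 library, and 10 had a larger ratio than miR-146a-5p. Its ratio was thus in the upper part of the range for abundant miRNAs, and was not the largest.

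miR-146b-5p has the same seed but went the other way, and was not called. Its log2 value was 13.11 in the M1 library and 13.73 in the M2 library, which are levels of 8858 and 13596 units. These rested on about 11190 and 10763 reads, and the arm ranked 18 in the M1 library and 12 in the M2 library. The log2 ratio of -0.62 is 1.54-fold higher in the M2 library, with a counting interval from -0.66 to -0.58. It lay within 2-fold, and 107 of the 337 compared miRNAs had a smaller ratio. With miR-146a-5p left out of each total, miR-146b-5p made up 1.57% of the remaining level in the M1 library and 1.99% in the M2 library, the same order.

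The 3p arms, the passenger strands, were rare. The 5p arm had 8956 times the reads of the 3p arm in the M1 library and 20030 times in the M2 library for miR-146a, and 339 and 448 times for miR-146b. miR-146a-3p had a log2 value of 3.86 in the M1 library, from 17 reads (9.90 to 27.2), and of 1.86 in the M2 library, from 2 reads (0.242 to 7.22). Its log2 ratio of 2.00 was past the 2-fold line. The reads themselves, scaled by the relative library size of 1.60, gave a log2 ratio of 2.41 with an interval from 0.34 to 5.57, so at this depth its ratio may lie well under or well above the line. miR-146b-3p had a log2 value of 4.76 in the M1 library, from 33 reads, and of 4.97 in the M2 library, from 24 reads. Its log2 ratio was -0.21, and the interval from the reads, -1.02 to 0.61, includes 0. Each arm had a ratio of the same sign as the other arm of its hairpin. Both miR-146a arms were higher in the M1 library, and both miR-146b arms had values higher in the M2 library. miR-146a-3p reached 10 units only in the M1 library (13.5 units, against 2.64 in the M2 library). It was thus compared only through the library where it is high, and its sign is no separate support. For the miR-146b-3p value the sign is not resolved at this depth.

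**Figure D1:**
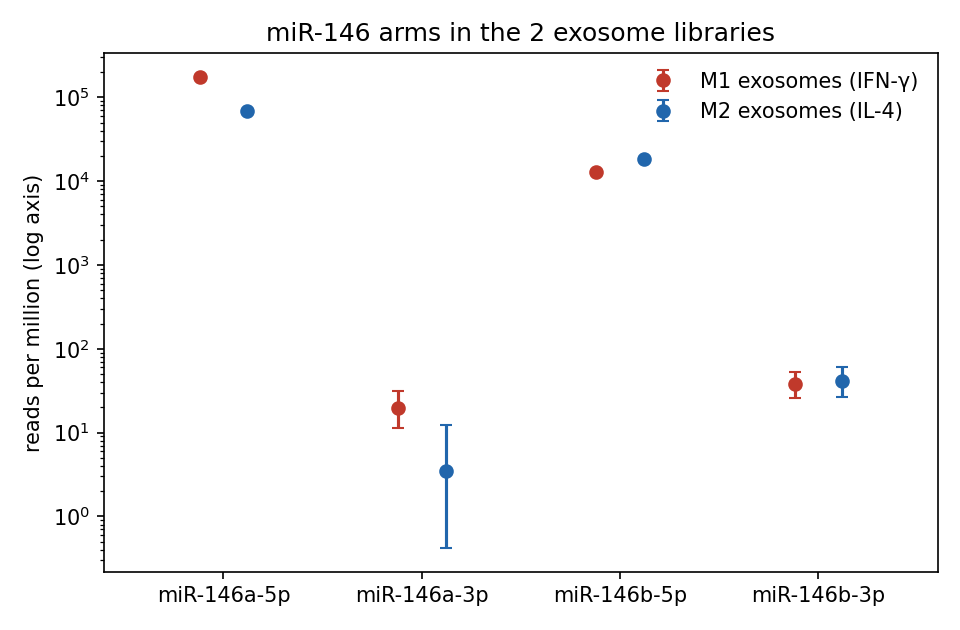
Reads of each miR-146 arm, scaled to the total of its library (log axis), in the M1 library (red) and the M2 library (blue), 1 library each, with bars for the exact 95% counting interval, which is smaller than the point for the 5p arms. miR-146a-5p is higher in the M1 library and miR-146b-5p higher in the M2 library. For each 3p arm the bars of the libraries overlap, and miR-146a-3p rests on 17 and 2 reads.

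The spread of all compared miRNAs places the members in the plot of the library values. miR-146a-5p lies at the top of the M1 axis and just outside the 2-fold line, and miR-146b-5p inside it among abundant miRNAs. The 3p arms lie in the low range, at log2 values under 5.

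**Figure D2:**
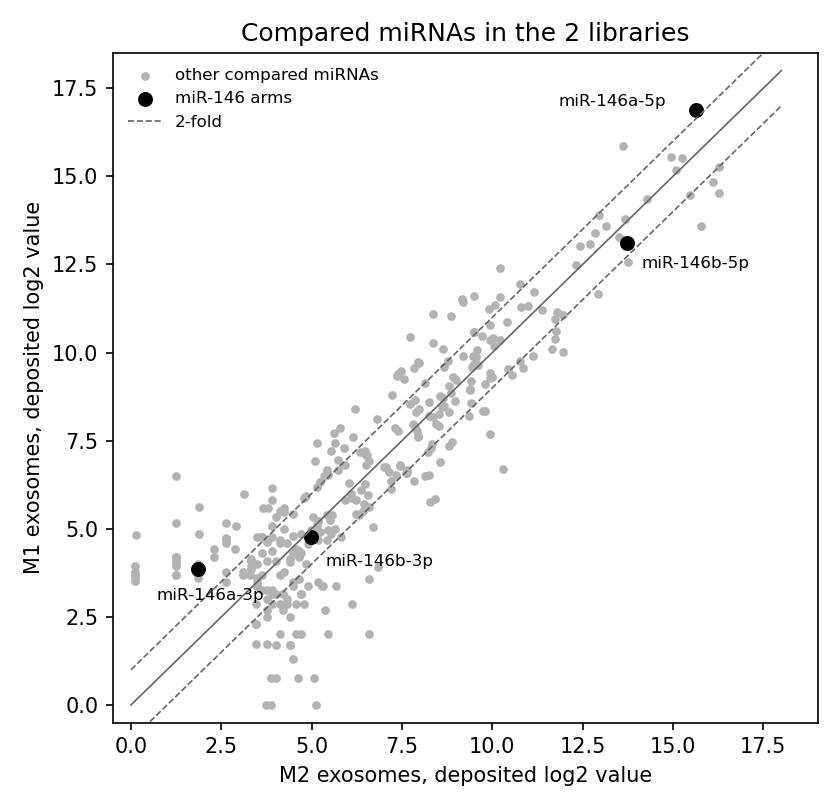
Deposited log2 value in the M1 library against the M2 library for the 337 compared miRNAs (grey), with the 4 miR-146 arms in black, the line of equal values (solid) and the 2-fold lines (dashed). miR-146a-5p and miR-146a-3p lie above the upper 2-fold line, and miR-146b-5p and miR-146b-3p between the lines.

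The balance of the paralogues differed between the libraries. miR-146a-5p was 13.6 times the level of miR-146b-5p in the M1 library and 3.72 times in the M2 library. On the log2 scale the difference was 3.77 in the M1 library and 1.90 in the M2 library, a change of 1.87. Of the 163440 reads of the 5p arms in the M1 library, 93.2% (93.0 to 93.3) were miR-146a-5p, against 78.8% (78.5 to 79.2) of 50823 in the M2 library. The intervals do not overlap, and they cover counting error only. This measure compares the arms within a library, so no scaling between the libraries enters it. Because the arms differ at 2 bases only, the change also rests on the assignment of reads between them.

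Other miRNAs that share a seed were set beside this pair. Within the 58 miRNAs of 1000 units or more, 28 pairs shared a seed, over 8 seeds. The log2 ratios of a pair differed by a median of 1.01 in size, and miR-146a-5p with miR-146b-5p, at 1.87, ranked 8 of the 28. The pair that differed most was miR-99a-5p with miR-99b-5p, at 3.20. Most of the 28 pairs lie within let-7 and share members, so they are not independent, and the median and rank mostly describe let-7. Outside let-7, miR-10a-5p with miR-10b-5p differed by 2.02. The pairs of miR-221 with miR-222, and those within miR-27, miR-181 and miR-148, differed by 0.253 or less.

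The 3p arms stood in the opposite order to the 5p arms. miR-146a-3p was at 0.519 times the level of miR-146b-3p in the M1 library and 0.0871 times in the M2 library, although its 5p partner was the more abundant paralogue in both. Of 50 reads of the 3p arms in the M1 library 34.0% (21.2 to 48.8) were miR-146a-3p, against 7.69% (0.946 to 25.1) of 26 in the M2 library. These shares rest on few reads, and the difference between them was not tested.

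Targets see the seed as a whole, and the 5p arms together gave the most abundant seed of the M1 library. GAGAACU, the seed of both 5p arms, held 18.9% of the summed level in the M1 library and 8.74% in the M2 library. It ranked 1 of 1396 seeds in the M1 library and 5 in the M2 library. The let-7 seed GAGGUAG, with 11 mature members, was next in the M1 library, at 11.2%, and led in the M2 library, at 17.7%. The seeds between them and the miR-146 seed in the M2 library were those of miR-99a-5p with 11.0%, let-7j with 10.9% and miR-148a-3p with 9.85%. These ranks cover the miRNAs with a RefSeq sequence, which hold 85.3% of the level in the M1 library and 94.3% in the M2 library. miR-122-5p, with 8.71% and 1.72% of the level, had no entry and is not ranked.

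The summed miR-146 seed level had a log2 ratio of 1.01, or 2.02-fold higher in the M1 library, against 1.25 for miR-146a-5p alone. It lay on the 2-fold line, and fell to 0.97 with ratios centred on their median and to 0.95 when each library was scaled without its 10 most abundant miRNAs. In M1 exosomes miR-146b-5p added 1.29% of the level to the seed, and in the M2 library 1.85%.

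**Figure D3:**
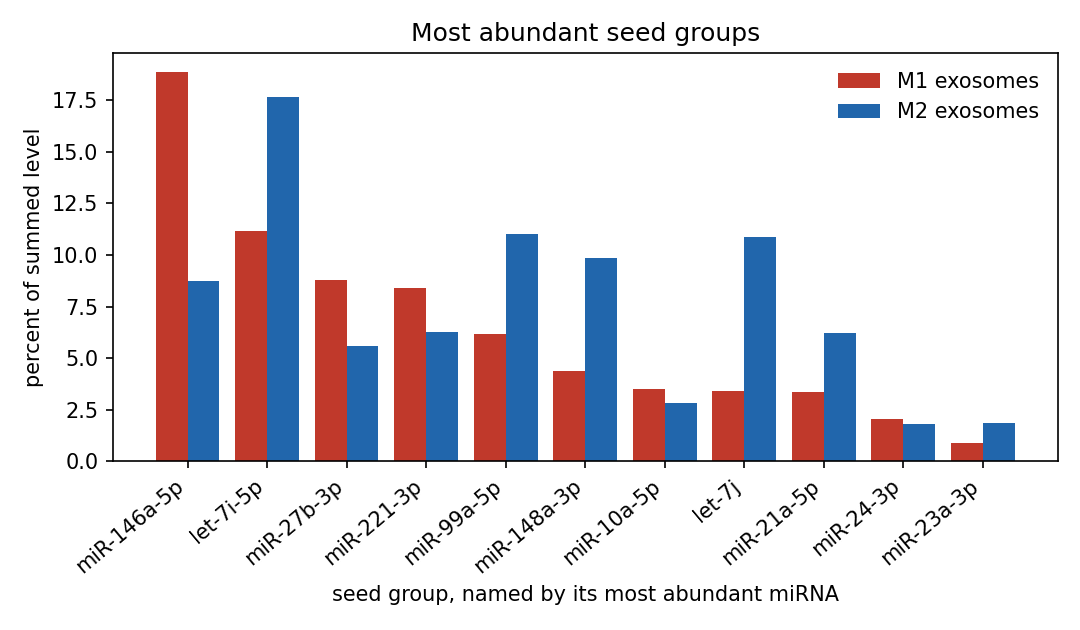
Percent of the summed level held by each seed group in the M1 library (red) and the M2 library (blue), for the seeds among the 10 most abundant of either library, named by their most abundant miRNA (miR-122-5p is not included). The miR-146 seed (miR-146a-5p) holds 18.9% in the M1 library, above all others shown, and 8.74% in the M2 library.

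Arm usage was strongly one-sided for both hairpins. In miR-146a the log2 value of the 5p arm exceeded that of the 3p arm by 13.02 in the M1 library and 13.76 in the M2 library. Of 68 hairpins with both arms compared and arm names that differ only in 5p or 3p, this was the widest gap in each library. The median gap was 3.50 and 3.47. Hairpins whose 3p name carries a copy number were left out, as were those whose rarer arm stayed under 10 units in both libraries. Wider gaps may thus lie outside the 68. miR-146a itself entered through the M1 library, where its 3p arm had 13.5 units, against 2.64 in the M2 library. The 3p arm made up 0.011% of the hairpin's reads in the M1 library (0.0065 to 0.018) and 0.0050% in the M2 library (0.00060 to 0.018). The log2 gap changed by -0.75 between the libraries, a value that rests on the 17 and 2 reads of the 3p arm and was not tested. In miR-146b the gap was 8.35 in the M1 library and 8.76 in the M2 library, rank 7 of 68 in each. Its 3p arm made up 0.294% (0.202 to 0.413) and 0.222% (0.143 to 0.331) of the hairpin's reads. That rank holds only among the 68. Outside them, pairs farther apart than the miR-146b arms include let-7c-5p (log2 values of 13.19 and 13.62) with let-7c-1-3p (4.26 and 4.64). Another is let-7f-5p (13.60 and 15.78) with let-7f-1-3p (5.225 and 5.186), and such pairs were not counted.

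The arm share also separated the paralogues within a library. The 3p share of miR-146b was above that of miR-146a in the M1 library and in the M2 library, and the counting intervals of the paralogues did not overlap in either. The 5p arm had the higher value in 36 of the 68 hairpins in each library. The median change of the gap between the libraries was 0.77 in size, and miR-146a and miR-146b ranked 36 and 53 of 68 for that change.

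**Figure D4:**
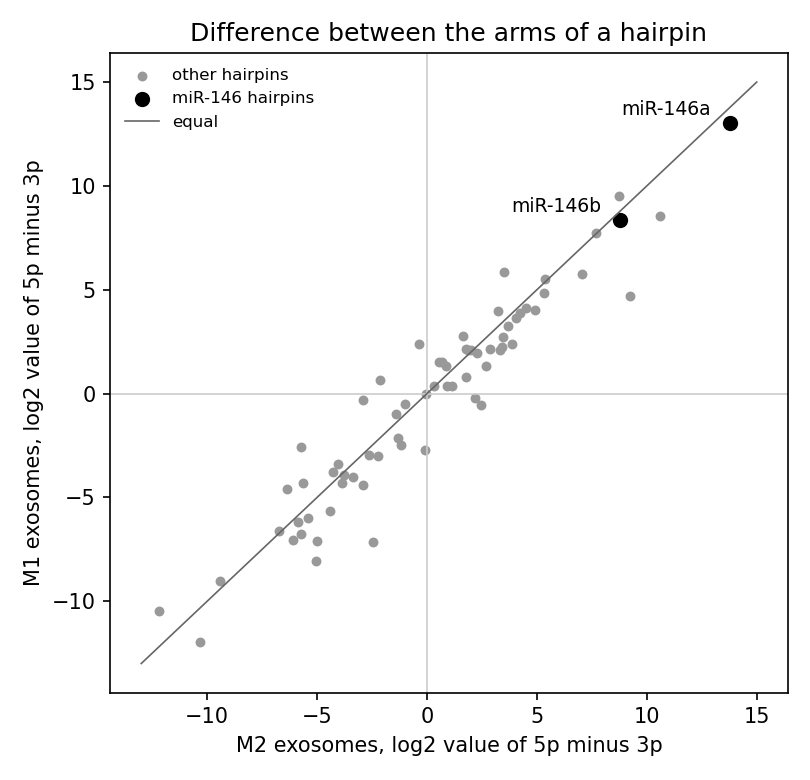
Log2 value of the 5p arm minus that of the 3p arm in the M1 library against M2 exosomes, with the line of equal differences. Shown are the 68 hairpins with both arms compared and paired by name (grey), with the miR-146 hairpins in black. Of those shown, miR-146a lies farthest from 0 in both libraries, at 13.02 and 13.76, and miR-146b at 8.35 and 8.76.

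Other miRNAs that NF-κB or Toll-like receptor signals are known to induce in macrophages did not move as one group. Of the 9 listed, 7 were compared, of which 3 were called higher in the M1 library, 1 was called higher in the M2 library and 3 were not called. Over all compared miRNAs 26.1% and 22.8% were called in these directions. The median log2 ratio of the list was -0.20, against 0.04 over all compared miRNAs. miR-155-5p, which promotes inflammatory responses and is induced by the same signals as miR-146a, had a log2 ratio of 1.35 from 3069 reads in the M1 library and 754 in the M2 library. miR-147-3p, which Toll-like receptors induce, had 2.71 from 1752 and 167 reads. miR-9-5p, which targets the NF-κB subunit gene Nfkb1, had -3.61 from 130 and 1001 reads.

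Most of these miRNAs were far less abundant than miR-146a-5p, except miR-21a-5p in the M2 library. miR-155-5p held 0.354% of the level in the M1 library and 0.130% in the M2 library. The abundant miR-21a-5p, an NF-κB- and STAT3-induced miRNA, held 3.33% and 6.19% and had a log2 ratio of -0.99. Its passenger miR-21a-3p had 1.06 from 75 and 22 reads, and the interval from the reads, 0.39 to 1.85, spans the 2-fold line. miR-132-3p and miR-125a-5p had log2 ratios of -0.24 and -0.20. miR-155-3p had 0 reads in the M1 library and 1 in the M2 library, and miR-212-3p was listed at 0 in both libraries. These were not compared.

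Of 6 miRNAs known to target parts of the NF-κB pathway, 0 were called higher in the M1 library, 1 was called higher in the M2 library and 5 were not called, beside 26.1% and 22.8% called over all compared miRNAs. Their median log2 ratio was -0.16. miR-10a-5p, the most abundant of them, held 3.06% of the level in the M1 library and 2.71% in the M2 library, at a log2 ratio of 0.08. miR-223-3p and miR-16-5p, which target the kinase IKKα, had -0.69 and -0.41. miR-15a-5p, with the same seed as miR-16-5p, had -1.06 from 33 and 44 reads, with an interval from -1.79 to -0.41. With reads scaled to the total of each library, miR-15a-5p had -0.99, within 2-fold. miR-181b-5p, which targets importin-α3, had 0.13, and miR-199a-5p, which targets IKKβ, had 0.32 from 50 and 25 reads.

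**Figure D5:**
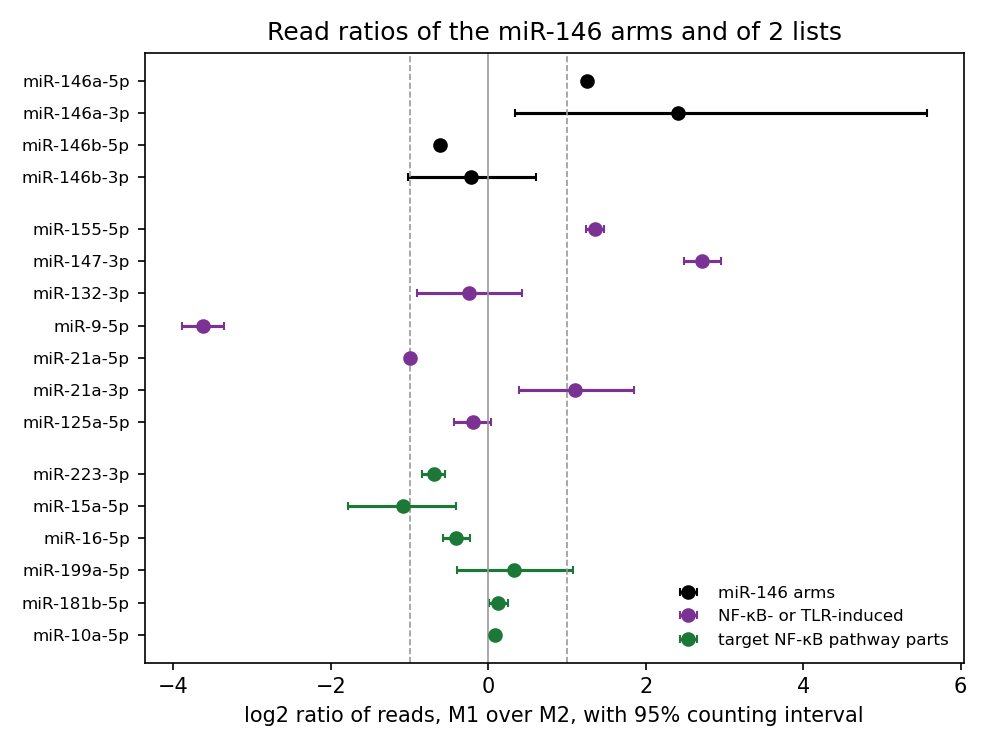
Log2 ratio of reads, M1 over M2, at the fitted relative library size, with exact 95% counting intervals (bars), for the miR-146 arms (black), the compared miRNAs of the induced list (purple) and those known to target NF-κB pathway parts (green); dashed lines mark 2-fold. miR-146a-5p lies near miR-155-5p, past the upper line, and the interval of miR-146a-3p runs from 0.34 to 5.57.

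The miRNAs whose ratio was nearest to that of each 5p arm were taken from the same 58. With 2 libraries this likeness is only a similar ratio, so it is a description. Nearest to miR-146a-5p were miR-22-3p at 1.28, miR-106b-3p at 1.18, miR-155-5p at 1.35 and miR-30a-5p at 1.36. Nearest to miR-146b-5p were miR-532-5p at -0.66, miR-23b-3p at -0.79, let-7c-5p at -0.44 and miR-5099 at -0.90.

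In rank, miR-146a-5p was followed in the M1 library by miR-122-5p, miR-27b-3p and miR-221-3p, at log2 values of 15.87, 15.55 and 15.52. In M2 exosomes it stood between let-7f-5p at 15.78 and miR-21a-5p at 15.47. Next above miR-146b-5p in the M1 library stood let-7c-5p at 13.19, let-7g-5p at 13.27 and miR-222-3p at 13.38, and next below miR-29a-3p at 13.09, miR-25-3p at 13.03 and miR-23a-3p at 12.56. In M2 exosomes its neighbours were miR-23a-3p at 13.75 above and miR-24-3p at 13.68 below.

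The labelled cell type was checked on miRNAs known from myeloid cells. All 6 listed were present in both libraries, with 180 to 28885 reads in the M1 library and 181 to 35979 in the M2 library, and together they held 4.00% and 6.66% of the level. Of these, 2 were called higher in the M1 library (miR-142a-5p at 1.72 and miR-155-5p), 1 in the M2 library (miR-142a-3p at -1.07) and 3 were not called. With reads scaled to the total of each library, miR-142a-3p had -0.97, within 2-fold. The shares called over all compared miRNAs were 26.1% and 22.8%. miR-21a-5p carries most of the summed myeloid level, and the other 5 summed to 4574 units in the M1 library and 3475 in the M2 library. These are 0.666% and 0.473% of the level.

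Several markers of other cell types were higher in the M1 library, as miR-146a-5p was. Of 14 such miRNAs 12 were compared, of which 7 were called higher in the M1 library and 1 in the M2 library, while 4 were not called. Among those higher in the M1 library, the erythroid miR-486a-5p and miR-486b-5p had near-equal log2 ratios, 2.36 and 2.23, and may not count as separate markers. Over all compared miRNAs the shares were 26.1% and 22.8%. The median log2 ratio of the 12 was 2.01. They held 10.2% of the level in the M1 library and 2.12% in the M2 library, mostly as the hepatocyte miR-122-5p with 8.71% and 1.72%. The erythroid miRNAs held 1.16% and 0.204%, the stromal ones 0.194% and 0.106%, and the endothelial ones 0.140% and 0.0801%. The lymphocyte miR-150-5p was called the other way, with 13 reads in the M1 library and 28 in the M2 library, and the stromal miR-143-3p had a log2 ratio of -0.33 with an interval from -0.53 to -0.14. Of the 14, the stromal miR-214-3p was at 0 reads in the M2 library and none was at 0 in the M1 library. Their part in the miR-146a-5p difference was not tested, and amounts per vesicle, numbers of vesicles and their cells of origin cannot be told apart in these libraries.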

How the data were processed

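Small RNA from exosomes (500 ng of RNA per library, NEBNext small RNA kit, per the labels) was sequenced in 1 library per group. Per the submitters' processing notes, Bowtie2, bedtools and mm10 were used, with no version or role stated; for counting, strand and normalization, the sources used here give no method. The deposited unit is a log2 value per mature miRNA, taken as log2(level + 1) from the values themselves. All ratios are differences of these values, M1 minus M2, on that scale.

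Reads were recovered from the values. A quantile adjustment of negative binomial counts from both libraries to a common size was fitted to low values (169 and 126 miRNAs), with a relative size of 1.60 and a dispersion of 0.588. Whole reads passed through it gave 747 of 747 deposited pairs within 0.001 on the log2 scale. For large counts that match is fixed in advance, since rounding to a whole read hardly moves the value. Only low counts can serve as a check, and all 582 pairs under 100 reads came out within 0.1 of whole numbers. The 169 and 126 miRNAs of the fit are among them, so for those the match is not independent. Levels close to 0 were set to 0 reads, which makes that side of a pair whole by construction. Pairs outside the fit were not counted apart. Rounding leaves miR-146a-5p uncertain by about 52.8 reads in M1 exosomes. That the authors used such a step is an inference from this match. The ratio of total reads was 1.49, which differs from the fitted size.

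The design foresaw 10 units or 10 reads as the minimum; units were used. The text names the 4 members, the fixed lists, the 4 miRNAs of mean at least 1000 units nearest in ratio to each 5p arm, 3 rank neighbours each side (the nearest are printed for M2 exosomes), and miRNAs sharing a member's seed; leading seeds and pairs, and let-7j, were named after their values were seen. Members and lists were chosen with earlier results of these data known. Alternatives were other scalings, pseudocounts of 0 and 5, other minimums and, chosen after seeing the data, recovered reads. The scripts were tested on simulated libraries. Python 3.11.15, numpy 2.4.6, pandas 2.3.3, scipy 1.17.1 and matplotlib 3.10.9 were used.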

Additional observations from a re-analysis of the deposited data

How the results depend on the processing

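Of 68 values computed under alternative settings, 62 kept their direction and their side of the 2-fold line, or stayed within 1.5 times for counts and within counting error for other values, and 0 reversed. Many of the 68 could hardly differ from the main value. Pseudocounts of 0 and 5 both left miR-146a-5p at 1.25. Recovered reads scaled to each library's total repeated its ratio from scaling to the summed level, 1.35 in both. The count of 62 thus says little about how stable the results are. The log2 ratio of miR-146a-5p ran from 1.19 to 1.35, that of miR-146a-3p from 1.28 (pseudocount 5) to 2.51 (recovered reads scaled to each library's total), that of miR-146b-5p from -0.68 to -0.52 and that of miR-146b-3p from -0.27 to -0.11. The summed miR-146 seed level had a log2 ratio of 0.97 with ratios centred on the median and 0.95 when scaled without the 10 most abundant miRNAs, both under 2-fold, since each of these settings lowers the ratios of the 4 members and of the seed alike. With no minimum level 201 miRNAs were called higher in the M1 library and 229 in the M2 library, and with a minimum of 100 units 37 and 33, since other miRNAs are then compared. The alternative with recovered reads was added after seeing the data, as the values allowed it. No paired analysis was possible because there is a single library per group, and none could be left out. Depth limits the 3p arms, above all miR-146a-3p with 2 reads in M2 exosomes.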
